A study of Mus musculus with 24 samples.

Results

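The chromatin side of a single-nucleus multiome experiment on liver invariant natural killer T (LiNKT) cells was examined here, with its nuclei split by the last character of their barcode, which is 1 or 2. Of 998453 barcodes in the fragment table, the 15802 with at least 1000 fragments were used, of which 8565 ended in 1 and 7237 in 2. The nuclei came from 5 untreated and 4 αGalCer/CD1d-NP-treated male mice of the diabetes-prone NOD strain at 13 to 15 weeks of age. This follows the study's methods, while a figure caption of the study gives a younger age and a vehicle for the control mice. Treated mice had received 20 µg of protein per dose, 2 doses per week for 5 weeks, of nanoparticles that display the glycolipid αGalCer on CD1d. Cells were sorted as TCRβ-intermediate and tetramer-positive, and the mice of a group were pooled before their nuclei were isolated. No label or header ties an ending to a treatment, so that every value is given by ending and none was used to assign one. Each ending was taken as a single library, which no label states, and has no replicates. No test between endings was thus possible, and no p-value is given.

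iNKT cells carry a semi-invariant T cell receptor and recognize lipids presented by CD1d. After activation they release cytokines within hours, and repeated stimulation can leave them with IL-10 production, inhibitory receptors and other traits of T-regulatory type 1 (TR1) cells. In the assay, a transposase cuts DNA where nucleosomes leave it exposed, so that fragment ends pile up at active promoters and at distal regulatory elements. A promoter or an element that holds more ends is called more open below.

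Both endings were deep and alike in quality. Ending 1 held 162817764 fragment ends (median of 7104 fragments per nucleus) and ending 2 held 149740716 (median of 8591). Ends at transcription start sites (TSSs) were enriched 32.3-fold and 30.4-fold over the flanks, and 41.6% and 41.3% of all ends lay in promoters, respectively. Sequencing went further for ending 2, with 3.19 reads per fragment against 2.38 for ending 1. The endings shared 100 barcode sequences, 1.17% of the nuclei of ending 1 and 1.38% of those of ending 2. Promoters of the T cell markers Cd3d, Cd3e, Cd3g, Cd5, Lck and Zbtb16 were open in both endings and differed by a log2 ratio of at most 0.22 in size. Per 1000000 ends, promoters of the 5 macrophage and Kupffer cell markers summed to 1.51 and 2.30 ends, those of the 4 neutrophil markers to 1.41 and 1.86, and those of the 5 hepatocyte markers to 5.09 and 4.23. Each of these promoters had less than 1 EPM in both endings except that of the hepatocyte gene Apoa1, with 3.78 and 3.18. The 5 B cell markers summed to 11.2 and 10.5, and both CD8 T cell markers together to 2.14 and 3.00. Sums of 51.9 and 48.3 for endothelial markers and of 41.2 and 38.4 for plasmacytoid dendritic cell markers were almost wholly those of Pecam1 and Bst2, which lymphocytes also express. Gene bodies of the endothelial markers summed to 124.8 and 158.6, and 1 of the 2 tested was at least 2-fold higher in ending 2.

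Promoters were taken as 2 kb on either side of the annotated TSS (GRCm38), and the ends within them were scaled to ends per 1000000 ends of the same ending (EPM). Of 20807 protein-coding autosomal genes, 11066 had a promoter with a mean of at least 5 EPM over both endings. Over these the endings were close to each other. The median log2 ratio (ending 2 over ending 1, with 1 EPM added to both values) was -0.02, and 90.6% of the promoters differed by less than 1.25-fold. Only 106 promoters were at least 2-fold more open in ending 2 (0.958% of those tested) and 42 in ending 1 (0.38%). At a 4-fold limit, 12 promoters were more open in ending 2 and 1 in ending 1. The promoters that differed were mostly weak by the mean of both endings, which is lowered by the ending where a promoter is less open. The median of this mean was 8.86 EPM for those higher in ending 2 and 9.13 for those higher in ending 1. Over all promoters tested it was 37.9. A mean of 20 EPM was reached by 13 of the 106 and 6 of the 42, and by 79.1% of all promoters.

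**Figure D1:**
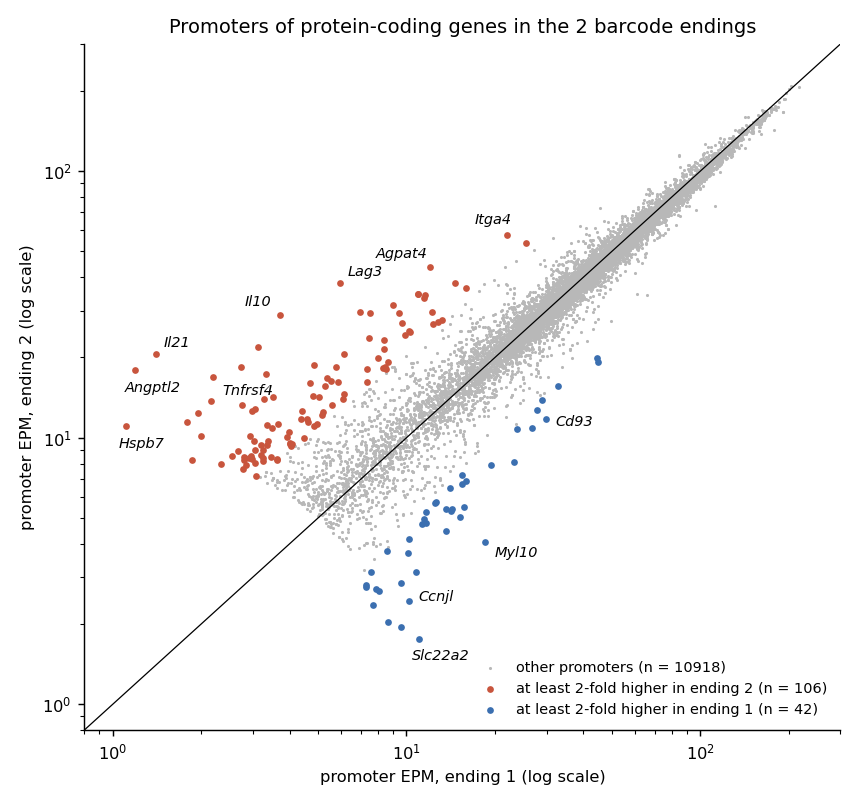
Promoter EPM in ending 1 (x axis, log scale) and ending 2 (y axis, log scale) for 11066 protein-coding genes, each point being 1 promoter and the line marking equal values. Most promoters lie along the line, while Il21, Angptl2, Il10 and Lag3 stand far above it and Slc22a2, Myl10 and Ccnjl below it.

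The promoters with the highest ratios towards ending 2 included those of cytokines and surface receptors of chronically stimulated T cells. Il21, a cytokine that helps B cells and sustains T cells, had the highest log2 ratio. Its promoter held 1.41 EPM in ending 1 (229 ends, Poisson 95% interval of 1.23 to 1.60) and 20.6 in ending 2 (3084 ends, 19.9 to 21.3), which is 14.6-fold more. Intervals of this kind cover counting error only, and the ends of a fragment are not independent. Il10, the anti-inflammatory cytokine that defines TR1 cells, had 3.72 EPM in ending 1 (3.43 to 4.03) and 28.9 in ending 2 (28.1 to 29.8). Lag3, an inhibitory receptor for MHC class II, stood at 5.95 (5.58 to 6.34) and 38.1 (37.1 to 39.1), the highest level among the 15 promoters of this list. Tnfrsf4, which encodes the costimulatory receptor OX40, had 2.20 and 16.9. These genes were chosen by their ratios, so that the gaps between their intervals are no separate evidence. Intervals also stayed apart in genes that were not called, such as Ahr (23.8 to 25.4 in ending 1 and 21.6 to 23.1 in ending 2).

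In the genome, the most different 300 bases of these promoters lay at the TSS or just before it. They are printed here because they held the largest gap in EPM within each promoter window. Ends also differed outside them, as at 1825 bp after the TSS of Il10, with 0.252 EPM in ending 1 and 1.36 in ending 2 per 50 bp. The sequences are given on the strand of the gene, in GRCm38 coordinates and with matches to any of 9 short motifs in capitals. The motifs, searched on both strands, were those of AP-1 (TGANTCA), NFAT (TGGAAA), NR4A (AAAGGTCA), TCF7/LEF1 (CTTTGA), RUNX (TGTGGT), MAF (TGCTGA), T-box (GGTGTGA), ETS (CCGGAAG) and KLF (CCCNCCC), of which the AP-1 and MAF letters can overlap. The Il21 stretch (chr3:37232756-37233055, minus strand, centred at -270 bp from the TSS, in a provisional gene model named Gm43822) held 0.203 EPM in ending 1 and 8.98 in ending 2. The Il10 stretch (chr1:131019745-131020044, plus strand, over the TSS and exonic sequence of Il10) held 0.356 and 8.72, and that of Lag3 (chr6:124911605-124911904, minus strand, over the TSS and exonic sequence) 1.17 and 12.8. That of Tnfrsf4 (chr4:156013713-156014012, plus strand, over the TSS and exonic sequence) held 0.258 and 6.28.
Il21: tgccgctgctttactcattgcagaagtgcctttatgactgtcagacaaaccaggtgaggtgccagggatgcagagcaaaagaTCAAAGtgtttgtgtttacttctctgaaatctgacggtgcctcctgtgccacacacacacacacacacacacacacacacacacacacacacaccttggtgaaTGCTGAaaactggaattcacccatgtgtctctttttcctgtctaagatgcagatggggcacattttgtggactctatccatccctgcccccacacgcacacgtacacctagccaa
Il10: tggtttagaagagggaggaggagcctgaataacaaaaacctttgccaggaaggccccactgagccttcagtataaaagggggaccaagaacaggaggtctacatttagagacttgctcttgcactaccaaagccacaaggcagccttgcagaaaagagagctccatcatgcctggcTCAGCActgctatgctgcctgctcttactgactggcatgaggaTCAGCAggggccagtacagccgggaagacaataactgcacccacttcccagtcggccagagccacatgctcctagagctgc
Lag3: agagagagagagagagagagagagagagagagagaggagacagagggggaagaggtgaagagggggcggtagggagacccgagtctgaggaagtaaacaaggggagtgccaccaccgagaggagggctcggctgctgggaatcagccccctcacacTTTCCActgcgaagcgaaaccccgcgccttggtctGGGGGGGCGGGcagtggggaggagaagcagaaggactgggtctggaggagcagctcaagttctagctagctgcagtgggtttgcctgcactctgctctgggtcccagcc
Tnfrsf4: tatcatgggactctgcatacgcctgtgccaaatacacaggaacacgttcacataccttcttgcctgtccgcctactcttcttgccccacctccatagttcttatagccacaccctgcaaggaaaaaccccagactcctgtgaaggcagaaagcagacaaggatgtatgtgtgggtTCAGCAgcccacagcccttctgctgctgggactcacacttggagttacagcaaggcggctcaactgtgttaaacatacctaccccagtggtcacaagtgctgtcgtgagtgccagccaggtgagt

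The Il10 stretch held 2 matches to MAF. Il21 had 1 match to MAF and 1 to TCF7/LEF1, Lag3 had 1 to NFAT and 2 to KLF, and Tnfrsf4 had 1 to MAF. A match is a run of letters and says nothing about the binding of a factor.

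**Figure D2:**
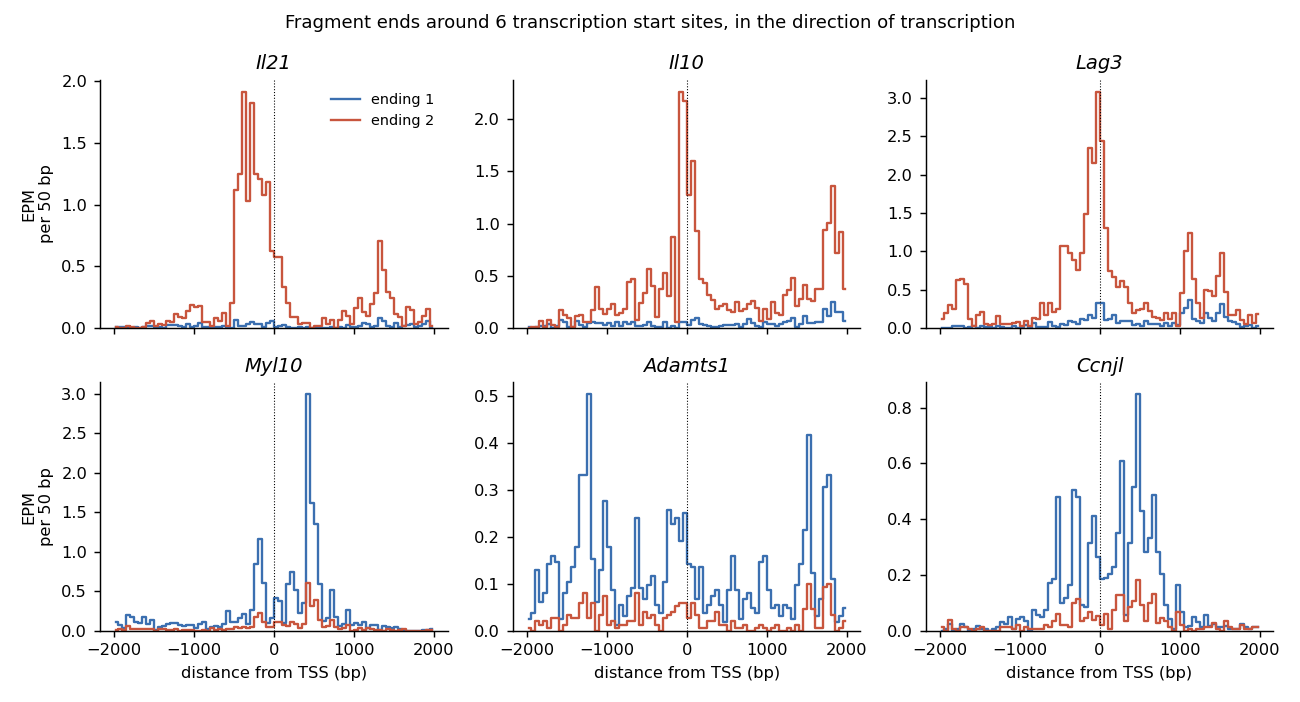
EPM in steps of 50 bp (y axis) by distance from the TSS in bp (x axis, in the direction of transcription) for 3 promoters higher in ending 2 (top) and 3 higher in ending 1 (bottom), with 1 line per ending. Il21, Il10 and Lag3 show a peak at or just upstream of the TSS that is far lower in ending 1, whereas the highest peak of Myl10 in ending 1 lies downstream of the TSS.

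The other genes among the 15 highest had varied roles. Angptl2, a secreted angiopoietin-like protein, had 1.19 EPM in ending 1 (1.03 to 1.37) and 17.9 in ending 2 (17.3 to 18.6), 15.1-fold more. Hspb7, a small heat shock protein, had 1.11 and 11.1. Pou2af1, the coactivator of Oct factors known from B cells, had 2.16 and 13.7. All 5 B cell markers had promoters below the minimum, with the sums given above, while their gene bodies summed to 28.9 EPM in ending 1 and 45.5 in ending 2, of which Pax5 had 14.7 and 30.9. The part of B cells in the value of Pou2af1 was not tested. The neighbouring inflammatory caspases Casp4 (1.95 and 12.4) and Casp1 (2.00 and 10.1) moved together. Cebpa, a transcription factor of myeloid cells and hepatocytes, had 1.79 and 11.4. Single macrophage and Kupffer cell markers had between 0.117 and 0.467 EPM in ending 1 and between 0.347 and 0.748 in ending 2, and 4 of the 5 were higher in ending 2, whereas 4 of the 5 hepatocyte markers were lower there. The part of such cells in the value of Cebpa was not tested. Abr (3.11 and 21.8), Sdcbp2 (2.73 and 18.4), Klf12 (3.32 and 17.3), Dpep2nb (6.97 and 29.7) and the CD30 gene Tnfrsf8 (2.76 and 13.3) completed the list.

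**Figure D3:**
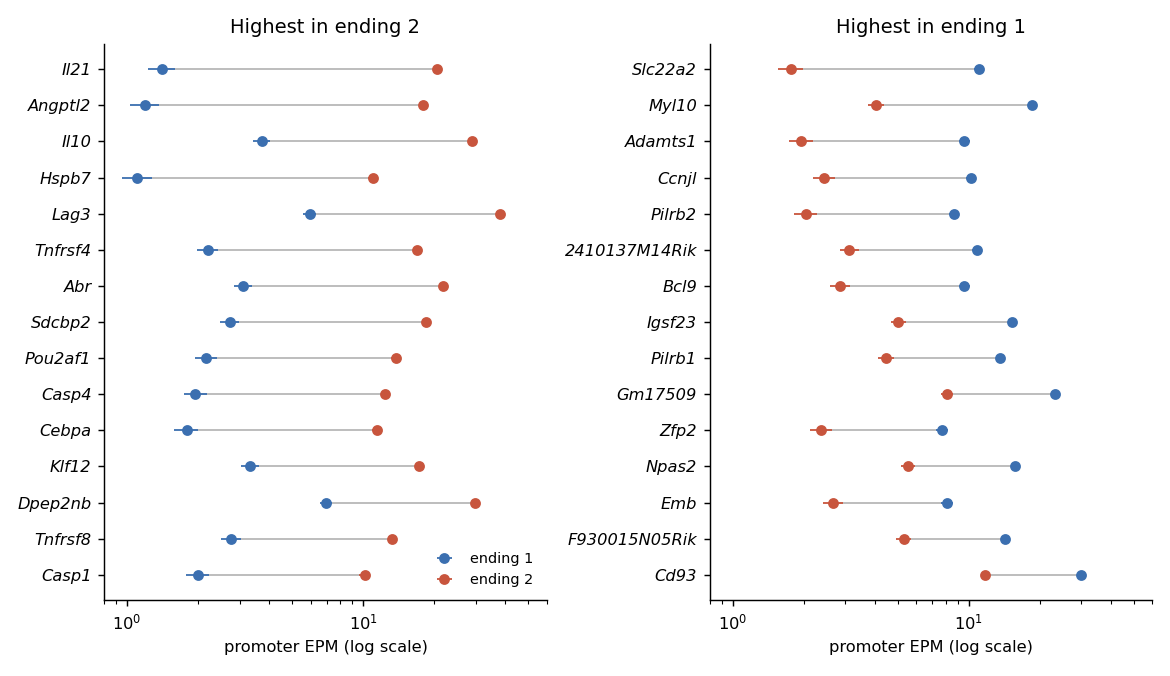
Promoter EPM (x axis, log scale) in ending 1 and ending 2 for the 15 promoters with the highest ratio (left) and the 15 with the lowest (right), with exact Poisson 95% intervals as horizontal bars that are often shorter than the points. In every gene drawn the intervals of the endings do not overlap, which is no test since the genes were chosen by their ratios. The points of Il21 and Angptl2 lie farthest apart.

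The promoters that were more open in ending 1 formed a shorter and more mixed list. Slc22a2, an organic cation transporter of the kidney, had 11.1 EPM in ending 1 (10.6 to 11.6) and 1.76 in ending 2 (1.56 to 1.99), a 6.27-fold difference. Myl10, a myosin light chain, had 18.5 and 4.05, and Adamts1, a secreted metalloprotease, 9.59 and 1.96. Ccnjl, a cyclin J-like gene, had 10.2 and 2.44. These 4 were also chosen by their ratios, so that the gaps between their intervals are no separate evidence. Emb, a membrane protein that assists monocarboxylate transporters, had 8.09 and 2.67, and the surface glycoprotein gene Cd93 had 29.8 and 11.8. Bcl9, a coactivator of β-catenin, had 9.59 and 2.86, and the clock gene Npas2 had 15.7 and 5.52. The paired immunoglobulin-like receptors Pilrb2 (8.67 and 2.04) and Pilrb1 (13.6 and 4.47) are near-identical neighbours, so that reads may have been split between them. The remaining members of this list, 2410137M14Rik, Igsf23, Gm17509, Zfp2 and F930015N05Rik, had log2 ratios between -1.52 and -1.27.

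The stretch that separated the endings most at Myl10 is shown because it lay away from the TSS, unlike those of the genes above. It was centred at 440 bp from the TSS (chr5:136693436-136693735, plus strand, overlapping an exon of the gene) and held 7.27 EPM in ending 1 and 1.56 in ending 2. No match to any of the 9 motifs was found in it.
Myl10: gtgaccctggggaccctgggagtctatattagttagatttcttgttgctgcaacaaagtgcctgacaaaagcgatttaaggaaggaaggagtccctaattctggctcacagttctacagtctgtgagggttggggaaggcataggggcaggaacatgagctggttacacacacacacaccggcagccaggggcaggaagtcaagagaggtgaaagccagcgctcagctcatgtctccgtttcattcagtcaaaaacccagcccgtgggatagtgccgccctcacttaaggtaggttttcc

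Gene bodies gave the same direction with other genes in front. Of 13572 gene bodies with a mean of at least 5 EPM, 154 were at least 2-fold higher in ending 2 (1.13%) and 48 in ending 1 (0.354%). Among the 10798 genes with both windows tested, 38 of the 92 genes called by the promoter in ending 2 and of the 68 called by the body were called by both (41.3% and 55.9%), and for ending 1 the overlap was 14 genes of 34 and 24 (41.2% and 58.3%). No gene was called in opposite directions. The promoter and body windows share bases near the TSS, so that this overlap is no independent evidence.

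Havcr2, which encodes the inhibitory receptor TIM-3, held 7.80 EPM over its body in ending 1 and 40.6 in ending 2, and Ctla4, the inhibitory receptor that competes with CD28, 19.8 and 84.1. The Ctla4 promoter window, set at the annotated gene start, stayed below the minimum, at 0.369 and 1.33. Most ends of its body thus lay farther inside the annotated gene, which spans 28.8 kb. Whether they lay at the start of another transcript was not tested. Plek, which encodes pleckstrin, a signalling adaptor of blood cells, led this ranking with 12.2 and 73.8, ahead of Il21 (2.78 and 20.3). Agpat4, an acyltransferase of phospholipid synthesis, had 22.2 and 119. Kcnk10, a potassium channel, had 4.48 and 28.9, and Zan, a sperm membrane protein, 10.6 and 52.6. Pou2af1, Casp4 and Klk1b27 made up the 10, the last of which belongs to a family of near-identical kallikreins and is uncertain.

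In ending 1, Efcab3, which overlaps the gene Gm11639, led with 22 against 4.21 EPM over its body, while its promoter was nearly empty (1.06 and 0.207). Aqp9, a channel for water and glycerol, had 69.1 and 20.3, and Emb had 153 and 52.2, the largest number of ends among these 10 bodies. Ccnjl (45.9 and 11.4), Crispld2 (59.8 and 18.3), Nox3 (12.7 and 3.37), AA986860 (13.9 and 4.13), Myl10 (13.8 and 4.15), Lysmd2 (21.1 and 6.88) and Pilrb1 (12.1 and 3.91) followed. Gm17509 lies wholly within Emb on chromosome 13, so that its ends (18.1 and 6.44 EPM) are part of those of Emb.

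Promoters that differed lay on many chromosomes. Those higher in ending 2 lay on all 19 autosomes, and 18 of the 106 had another one within 500 kb. Pairs among them were Casp1 and Casp4, Gzma and Gpx8, Gnaq and Gna14, Serpinb1b and Serpinb1c, and Serpina3f and Serpina3g, of which the Serpin pairs are similar in sequence and uncertain. Those higher in ending 1 lay on 16 autosomes, with 10 of 42 within that distance, among them Tmem176a and Tmem176b, Pilrb1 and Pilrb2, and Il17rb and Chdh. Such counts were not made for other sets of promoters of the same size. They thus cannot say whether the called promoters lay closer together than others. In 5 of the 106 and 7 of the 42, the promoter window overlapped that of another gene, against 27.8% of all tested. Ends in such an overlap count for each gene. At the edge of the 2-fold limit, Cfap99 (3.63 and 8.26 EPM) was just inside for ending 2 and Dhrs3 (18.4 and 37.6) just outside, and for ending 1 Scn4a (15.5 and 7.23) was inside and Ntrk3 (23.5 and 11.3) outside.

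Lists of genes with known roles in these cells were then compared with the whole set of promoters, whose shares past 2-fold were those given above. TR1-like and checkpoint genes held the most called promoters of the 10 lists. Of 26, 23 had a promoter above the minimum, 8 were at least 2-fold higher in ending 2 and none in ending 1, with a median log2 ratio of 0.57 against -0.02 over all promoters tested. The 8 were Il21, Il10, Lag3, Tnfrsf4, Tox2 (7.5 and 29.5 EPM), Cd200 (3.28 and 13.9), Havcr2 (3.51 and 14.2) and the integrin gene Itga4 (22 and 57.5). Pdcd1, which encodes PD-1, missed the limit with 17.6 and 35.4, a log2 ratio of 0.97. Of the transcription factors of this list, Tox2 was thus past 2-fold at the promoter, and the others that were tested had log2 ratios of 0.57 (Irf4), 0.38 (Nfil3), 0.25 (Tox), 0.20 (Nfia), 0.11 (Batf), 0.04 (Maf), -0.13 (Ahr) and -0.23 (Prdm1). Over gene bodies 10 of 25 were higher in ending 2, Vdr (25.6 and 75.3), Nfia (69.4 and 175) and Nfil3 (18.8 and 46.2) among them, which the promoter did not single out. This list holds genes that earlier results on these mice had put forward, so that its count is no independent evidence.

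Type 1 effector and cytotoxic genes had 3 of 16 promoters higher in ending 2 and none in ending 1, with a median of 0.14. The granzyme gene Gzma had 7.48 and 23.6 EPM, the transcription factor gene Eomes 3.97 and 10.5, and the chemokine gene Ccl3 7.33 and 18.1. Ifng (63.4 and 64.6), Tbx21 (36.7 and 40.6) and Prf1 (35.1 and 38.0) were open to nearly the same extent in both endings. Eomes is also 1 of the 4 NK cell markers. Of the others, Ncr1 had more ends in ending 2 (1.48 and 6.53 EPM), while Klra4 (1.54 and 1.99) and Klra8 (0.233 and 0.274) differed less between endings. All 4 together summed to 7.23 and 19.3, with Eomes giving the most. The part of NK cells in the values of Gzma, Eomes and Ccl3 was not tested. Of 16 NK receptor genes, 8 promoters were tested and none passed 2-fold, with Klrd1 at 7.87 and 8.38, and with Cd244a (log2 ratio of 0.77), Klra9 (0.75) and Klre1 (0.74) the farthest.

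**Figure D4:**
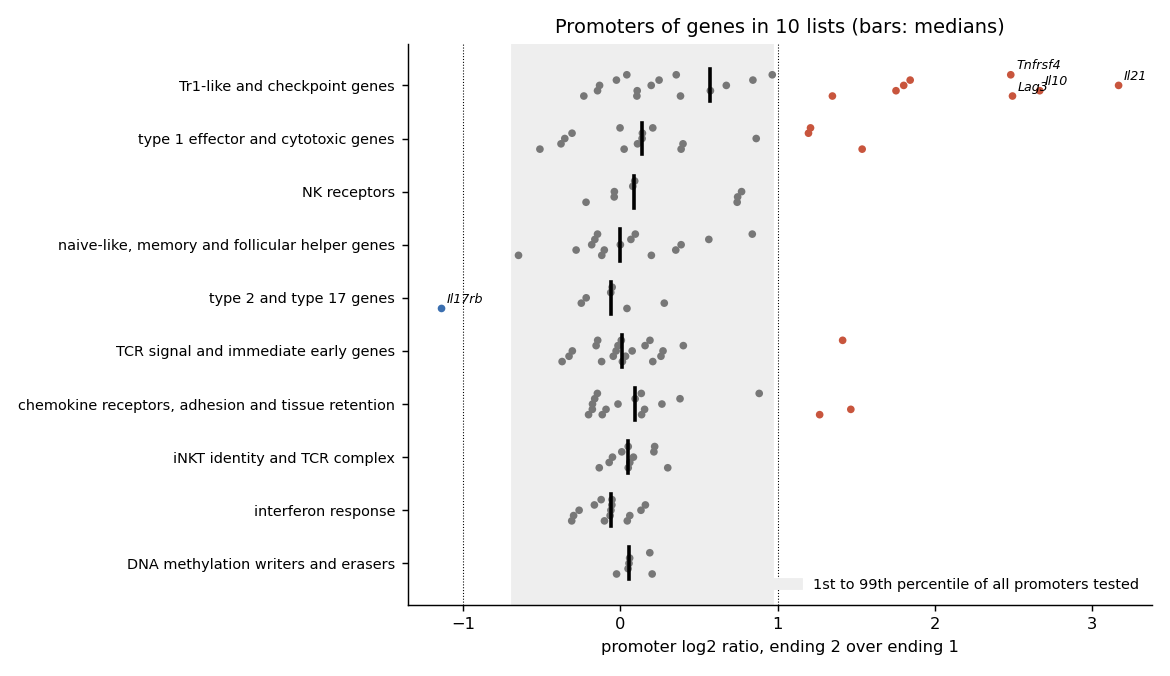
Promoter log2 ratio of ending 2 over ending 1 (x axis) for the tested members of 10 gene lists (rows), with 1 point per gene, black bars for list medians, dotted lines at 2-fold and a grey band from the 1st to the 99th percentile of all 11066 promoters. The TR1-like and checkpoint list has 8 points past 2-fold and a median of 0.57, and the other medians lie between -0.06 and 0.14.

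Chemokine receptor, adhesion and tissue retention genes had 2 of 17 promoters higher in ending 2, Rgs16, a regulator of G protein signalling, with 11.5 and 33.5 EPM, and the adhesion receptor gene Adgrg1 with 2.91 and 8.42. Cxcr6 (40.4 and 35.6) and Cd69 (47.5 and 44.6), which mark liver residence, differed little. Of 20 TCR signal and immediate early genes, all tested, only Nr4a2, an orphan nuclear receptor induced by TCR signals, passed 2-fold (5.52 and 16.4), and Nr4a1 and Nr4a3 had log2 ratios of 0.26 and -0.12. The median of this list was 0.01, with Fos (116 and 117), Junb (165 and 162) and Egr1 (136 and 143) among the most open promoters in both endings.

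The list of naive-like, memory and follicular helper genes had no promoter past 2-fold among 15, with a median of 0.00. Its largest values were those of Il6ra (log2 ratio of 0.84), Il7r (-0.65, with 28.0 and 17.5 EPM) and S1pr1 (0.56). Of the type 2 and type 17 genes, 7 promoters were tested and Il17rb, which encodes the receptor for IL-25, was the only one past 2-fold, with 7.25 in ending 1 and 2.76 in ending 2. Its neighbour Chdh had nearly the same values, 7.29 and 2.80, and whether their windows share ends was not tested. Il5 (5.60 and 1.62) moved the same way below the minimum, and Il4 (18.9 and 18.1), Il13 (11.8 and 11.4) and Gata3 (21.6 and 18.5) barely differed. No promoter passed 2-fold among 11 of the iNKT identity and TCR complex genes (median of 0.05), 14 interferon response genes (-0.06) and 6 writers and erasers of DNA methylation (0.06). In these lists Zbtb16, the lineage factor of iNKT cells, had 45.7 and 41.6 EPM, and Dnmt3a 24.8 and 24.4. Promoters of 72 ribosomal protein genes, taken as a yardstick, had a median of -0.07 and none passed 2-fold.

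The ends were also counted nucleus by nucleus. At the depth reached, the share of nuclei with an end follows the summed level, so that it cannot tell apart more nuclei with an open locus from more ends in each. After each nucleus was thinned to 3000 fragments, which left out 1839 shallower nuclei of ending 1 and 1256 of ending 2, the Lag3 promoter had an end in 1.73% of 6726 nuclei of ending 1 (exact binomial 95% interval of 1.43 to 2.07) and in 10.7% of 5981 of ending 2 (9.96 to 11.6). The share for Il10 was 1.25% (0.997 to 1.54) and 7.83% (7.16 to 8.54), and for Il21 0.387% (0.253 to 0.566) and 5.35% (4.79 to 5.95). For Slc22a2 it was 3.58% (3.15 to 4.06) and 0.468% (0.311 to 0.676), and for Myl10 4.70% and 1.05%. These shares are bounded by the sampling of each nucleus, since the Cd3e promoter, which every T cell should have open, gave 17.4% and 18%. The closed promoter of the albumin gene Alb gave 0.0595% and 0.0669%. Without thinning, the shares were 4.94% and 25.4% for Lag3, 3.16% and 20.6% for Il10, and 1.23% and 14.2% for Il21, in all nuclei of each ending. The binomial intervals cover the sampling of nuclei only, and the nuclei of an ending are no replicates. Lag3, Il10, Il21 and Slc22a2 were chosen by the same ends, so that the gaps between their intervals are no separate evidence.

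Across the 106 promoters higher in ending 2, a thinned nucleus had an end in a median of 2 in ending 1 (quartiles of 1 and 3) and 5 in ending 2 (3 and 7). At least 5 of these promoters were hit in 54.0% of the nuclei of ending 2 and in 6.08% of those of ending 1, and none in 3.63% and 21.4%. For the 42 promoters higher in ending 1 the median was 2 in ending 1 and 0 in ending 2. Since these promoters were chosen by the same ends, the values are a description and no test of the difference. In barcodes with fewer than 100 fragments, which were not used, the Il21 promoter held 4.93 and 10.2 EPM (37 and 94 ends) and Il10 6.53 and 14.7 (49 and 135 ends). Angptl2 (9.86 and 14.6) and Lag3 (9.73 and 16) had the same order there, whereas Hspb7 had 6.66 and 5.65 (50 and 52 ends), the opposite of its order in nuclei. Of the genes of ending 1, Myl10 had 6.93 and 2.06, Slc22a2 9.06 and 4.89, Ccnjl 7.46 and 3.91, and Adamts1 3.33 and 2.82.

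The highest ratios lay outside promoters. The autosomes were tiled in windows of 500 bp, and 73080 windows had a mean of at least 2 EPM. Of these, 758 were at least 4-fold higher in ending 2 (1.04%) and 154 in ending 1 (0.211%), with 0.2 EPM added to both values. At a 2-fold limit the numbers were closer to each other, with 2559 windows higher in ending 2 (3.5%) and 2192 in ending 1 (3%). Neighbouring windows past 4-fold merged into 620 and 132 loci. Only 6.46% of the windows higher in ending 2 touched a promoter, against 44.4% of all windows tested, while 52.5% lay in a gene body (33.3% of all) and 41.0% elsewhere (22.4%). The places of those higher in ending 1 were similar, with 5.19%, 53.2% and 41.6%. Their median distance from the nearest TSS was 32.0 kb for ending 2 and 37.5 kb for ending 1, and 4.32 kb over all windows.

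The windows with the highest ratios were nearly empty in ending 1. The first lay inside Runx2, a Runt family transcription factor gene, at chr17:44766501-44767000, with 9 ends in ending 1 (0.0553 EPM, 0.0253 to 0.105) and 1824 in ending 2 (12.2 EPM, 11.6 to 12.7). The next, intergenic and at -25.9 kb from the TSS of Eea1, had 22 and 2075 ends (0.135 and 13.9 EPM). Windows inside E130308A19Rik (16 and 1813 ends), Scfd2 (12 and 1580), Nfia (4 and 1059), Hhat (7 and 1101) and the cell cycle kinase gene Cdk6 (37 and 1861) followed the same pattern. So did windows at 198 kb from the TSS of Hlx (19 and 1604 ends), near Sspn (13 and 1259) and near 1700129C05Rik (2 and 929). Counted by nearest gene, the 758 windows at least 4-fold higher in ending 2 fell to 476 genes. Abr had the most, with 11 of 18 tested windows called, followed by Il10 (10 of 23) and Fam133b (8 of 14). Lag3 (7 of 11), Ube2e3 (7 of 16), Wwox (7 of 27) and Maf (7 of 46) came next. Maf is a transcription factor gene of IL-10-producing T cells, and its own promoter had a log2 ratio of 0.04.

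Windows higher in ending 1 kept some ends in ending 2. A pair inside the overlapping genes Efcab3 and Gm11639 came first, with 964 and 54 ends (5.92 and 0.361 EPM) and 834 and 46 ends (5.12 and 0.307). A window at -115 kb from the TSS of Eef2kmt, within the lincRNA gene model Gm41414, had 8.11 and 0.842 EPM, and 8 of the 15 tested windows nearest to Eef2kmt were called. Windows in Garnl3 (8.0 and 0.922, and 6.12 and 0.628), Nebl (6.46 and 0.701) and Ccnjl (4.18 and 0.394, and 3.72 and 0.334), and others at -206 kb from the TSS of Gadl1 (8.10 and 0.902) and at 47.4 kb from that of Ankrd16 (4.15 and 0.387), made up the 10. The Nek10 locus had all 5 of its tested windows called.

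The most different 300 bases of the leading windows are given on the plus strand, since these distal elements carried the widest gaps between the endings. The Runx2 stretch (chr17:44766501-44766800, intronic) held 0.0430 EPM in ending 1 and 10.9 in ending 2. The stretch upstream of Eea1 (chr10:95914501-95914800, intergenic) held 0.104 and 11, and the one upstream of Eef2kmt (chr16:5371201-5371500, intronic in Gm41414) 7.21 and 0.721.
Runx2: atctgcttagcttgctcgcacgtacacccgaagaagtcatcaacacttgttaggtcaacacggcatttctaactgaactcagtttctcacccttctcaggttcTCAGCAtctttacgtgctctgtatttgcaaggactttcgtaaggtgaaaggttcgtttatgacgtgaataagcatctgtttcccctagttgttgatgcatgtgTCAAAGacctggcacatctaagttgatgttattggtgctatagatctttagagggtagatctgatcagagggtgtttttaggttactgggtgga
Eea1: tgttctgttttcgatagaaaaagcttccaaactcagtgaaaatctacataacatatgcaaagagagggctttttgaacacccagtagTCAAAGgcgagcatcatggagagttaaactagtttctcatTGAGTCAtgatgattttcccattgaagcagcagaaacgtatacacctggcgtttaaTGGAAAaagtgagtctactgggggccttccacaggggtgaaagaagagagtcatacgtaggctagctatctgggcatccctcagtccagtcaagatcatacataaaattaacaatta
Eef2kmt: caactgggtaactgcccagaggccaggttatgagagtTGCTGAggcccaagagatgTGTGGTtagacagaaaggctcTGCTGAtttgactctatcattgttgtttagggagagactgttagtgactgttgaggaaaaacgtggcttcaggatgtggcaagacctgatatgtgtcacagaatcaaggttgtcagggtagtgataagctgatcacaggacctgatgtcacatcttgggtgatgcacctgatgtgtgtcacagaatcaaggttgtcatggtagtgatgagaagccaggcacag

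The Eea1 stretch held 1 match each to AP-1, NFAT and TCF7/LEF1, the Runx2 stretch 1 each to TCF7/LEF1 and MAF, and the Eef2kmt stretch 1 to RUNX and 2 to MAF.

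Over all windows outside promoters, the motif content of the called windows differed from that of the 40665 windows tested. AP-1 letters were present in 48.7% of the 709 windows higher in ending 2 and in 15.1% of the 146 higher in ending 1, against 17.4% of all. NFAT letters followed with 55.6%, 32.2% and 36.5%, and MAF with 43.7%, 32.2% and 35.3%. In ending 1 it was RUNX (58.2% against 41.8% of all and 39.2% in ending 2) and TCF7/LEF1 (43.8% against 30.7% and 31.9%) that were more frequent. T-box letters were in 11.7% and 11% of the called windows and in 9.43% of all, and NR4A letters in 4.80%, 2.74% and 2.65%. KLF letters (45.3% and 35.6% against 45.4%) and ETS letters (2.96% and 2.05% against 5.36%) were no more frequent than in all windows. The called windows held slightly less GC (medians of 46.8% for ending 2 and 46.1% for ending 1, against 48.6%).

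In the 300 bases from 250 before to 50 after the TSS, AP-1 letters were found in 13.2% of the 106 promoters higher in ending 2, 7.14% of the 42 higher in ending 1 and 4.47% of all 11066. Both groups of promoters were poorer in CpG, with medians of 14.5 and 9 CpG sites against 20, and in ETS letters, with 4.72% and 4.76% against 18.5%. Both groups also had lower levels, with medians of 8.86 and 9.13 EPM against 37.9, and promoters of matched level were not compared. NFAT letters were in 19.8% of the promoters higher in ending 2, 28.6% of those higher in ending 1 and 16.7% of all, an order that differs from that in the windows, and RUNX letters in 17.9%, 23.8% and 13.0%.

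**Figure D5:**
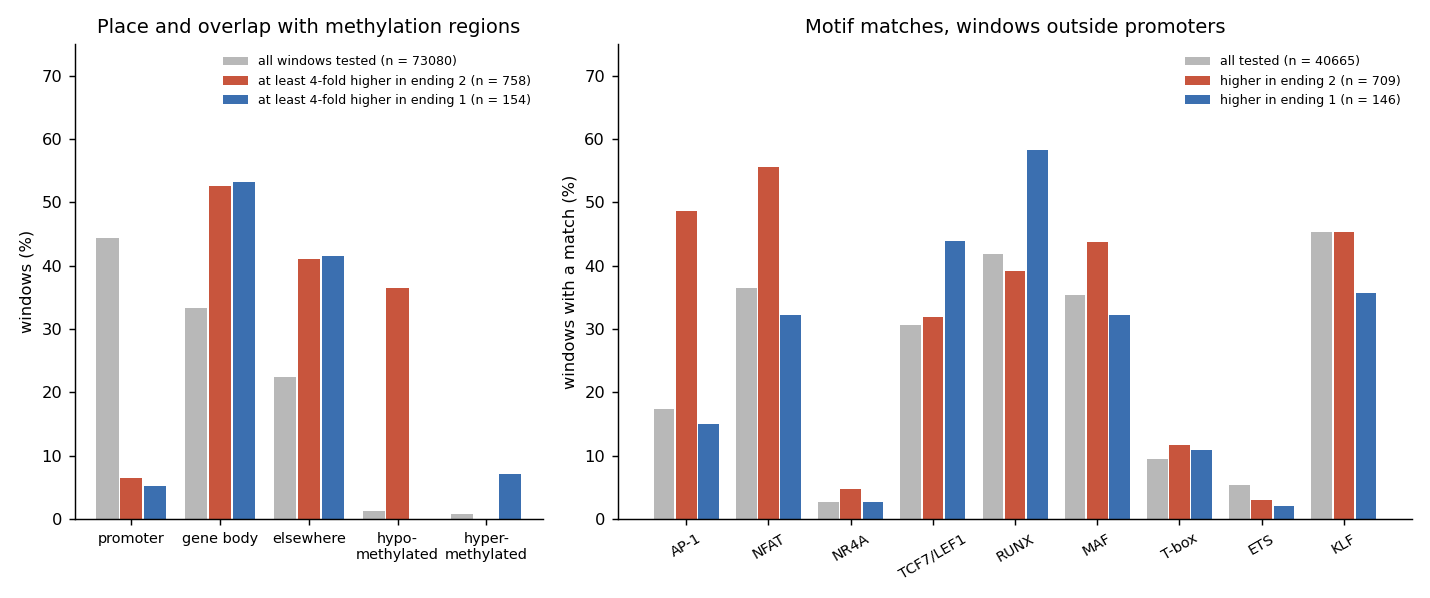
Share of 500 bp windows in % (y axes) by place and by overlap with methylation regions (left) and with a match to each of 9 motifs among windows outside promoters (right), for all windows tested, those at least 4-fold higher in ending 2 and those at least 4-fold higher in ending 1. Hypo-methylated regions overlap 36.5% of the windows higher in ending 2 and 1.23% of all, and AP-1 letters occur in 48.7% and 17.4%.

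Readouts that had not chosen the loci were set beside them. Whole genome bisulfite sequencing of LiNKT cells from 7 untreated female mice at 17 weeks and 4 treated mice at 16 weeks, whose sex is not given in the sources used here, had given regions that lose (hypo) or gain (hyper) methylation in treated mice. Hypo-methylated regions overlapped 277 of the 758 windows higher in ending 2 (36.5%) and none of the 154 higher in ending 1, against 898 of all 73080 (1.23%). Hyper-methylated regions overlapped 11 of the 154 windows higher in ending 1 (7.14%), none of the 758, and 565 of all (0.773%). Of all windows 44.4% touched a promoter, against 6.46% of those higher in ending 2 and 5.19% of those higher in ending 1. Windows of like place were not compared.

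Taken from the side of the regions, the 1958 autosomal hypo-methylated regions, whose authors' mean methylated fraction was 0.763 in untreated and 0.390 in treated mice, held 2269 EPM in sum in ending 1 and 5808 in ending 2, a ratio of 2.56. Their median log2 ratio was 1.17 (quartiles of 0.48 and 2.08, with 0.2 EPM added). Of these regions, 92.4% had a higher EPM in ending 2. In 1089 it was at least 2-fold higher there (55.6%), and in 2 at least 2-fold higher in ending 1 (0.102%). Of the 500 bp windows tested, 3.5% and 3% were past 2-fold for endings 2 and 1. Those windows had to reach a minimum level, whereas no minimum was set for the regions, so that the shares are not fully alike. The 881 hyper-methylated regions, with mean fractions of 0.251 and 0.571, held 2760 and 1590 EPM, and their median was -0.60. Of these, 241 were at least 2-fold higher in ending 1 (27.4%) and 5 in ending 2 (0.568%). These values describe how chromatin of the endings lay on the regions and were not used to say which ending is treated.

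Promoters and bodies of the called genes were compared with the regions in the same way. Of the 106 promoters higher in ending 2, 11 held a hypo-methylated region (10.4%, against 1.07% of all tested), and of the 42 higher in ending 1 none did, while 2 held a hyper-methylated one (4.76% against 0.515%). Promoters of Il21 and Il10 held 1 hypo-methylated region each, Lag3 held 2 and Tnfrsf4 and Rgs16 held 3. Angptl2, Hspb7 and Casp4 had none in promoter or body. Among gene bodies higher in ending 2, 36 of 154 held a hypo-methylated region (23.4% against 6.31%), including 4 in Ctla4, and 5 a hyper-methylated one (3.25% against 4.10%). Of the 48 bodies higher in ending 1, 3 held a hypo-methylated region (6.25%) and 2 a hyper-methylated one (4.17%), shares close to those of all bodies.

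RNA came from SmartSeq2 sequencing of single LiNKT cells of 3 untreated and 3 treated male mice at 13 to 15 weeks, 273 and 251 cells, which were summed per group and scaled to CPM, counts per 1000000 counts. Of the 106 genes with a promoter higher in ending 2, 40 had RNA at least 2-fold higher in treated than in untreated cells (37.7%, against 17.9% of the 11055 genes with a tested promoter) and 2 at least 2-fold lower (1.89% against 16.5%). For the 42 genes of ending 1, 41 of which were in the tables, the counts were 3 higher (7.32%) and 13 lower (31.7%). A mean of at least 1 CPM was reached by 51 of the 106 genes and 16 of the 41, and genes with little or no RNA held the median log2 ratio (1 CPM added) near 0, at 0.03 for ending 2 and 0.00 for ending 1 and for all genes. The quartiles lay at 0.00 and 3.31 for ending 2, at -1.40 and 0.00 for ending 1, and at -0.53 and 0.58 for all genes. With 1 pool of cells per group these ratios have no replicate error.

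RNA of other liver cells was also higher in the treated cells. Of the 5 macrophage and Kupffer cell markers, 4 were higher in treated than in untreated cells, with Lyz2 at 1688 CPM against none, C1qa at 62.8 against 0.00580, Csf1r at 41.9 against 0.00580 and Adgre1 at 18.1 against none, and Clec4f was at 0 in both. All 5 hepatocyte markers were counted in treated cells alone, Alb with 40.1 CPM and Apoa1 with 34.5, as was Cebpa with 9.54, whereas neutrophil and B cell markers were near 0 in both groups. At least 10 reads of the macrophage or the hepatocyte markers were found in 14 treated cells (11 and 3 cells) and in no untreated cell. Without these 14 cells, a choice made after seeing the data, Lyz2, C1qa, Csf1r, Alb, Apoa1 and Cebpa were at 0 in treated cells. Of the 106 genes of ending 2, 36 were then at least 2-fold higher in treated cells (34.0%, against 17.1% of all) and 2 lower, and of the 41 of ending 1 none was higher and 14 were lower (34.1% against 16.9%).

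Single genes showed the range. No RNA was counted in untreated cells, which leaves room for up to 0.0174 CPM (3 counts, a limit for the counting of reads alone, which are PCR copies without molecular identifiers), for Il10, Il21, Lag3, Tnfrsf4, Angptl2, Sdcbp2 and Casp4, while treated cells had 383, 97.5, 697, 172, 65.6, 136 and 54.4 CPM, respectively. Casp1 had 0.777 and 202 CPM, Gzma 143 and 3904, and Itga4 28.1 and 292. Without the 14 cells, treated cells had 396 CPM of Il10, 735 of Lag3 and 195 of Casp1. The RNA of Havcr2 in treated cells went from 11.1 CPM to 0 when they were left out, and that of Plek from 39.7 to 21.5, and neither gene had RNA in untreated cells. Of the NK cell markers, Ncr1 had 190 and 759 CPM, Klra4 38.0 and 69.8, and Klra8 6.24 and 32.0, while Eomes had none and 0.0268. The part of such cells in the RNA of Gzma was not tested. In the other direction, Emb had 216 CPM in untreated and 8.51 in treated cells, Aqp9 96.5 and 22.9, Lysmd2 90.0 and 36.4, and Ccnjl 12.1 and none. Hspb7, Pou2af1, Slc22a2 and Myl10, whose promoters ranked near the top of their lists, had no RNA in either group. Abr, whose promoter stood apart while its body had a log2 ratio of 0.43, had 48.3 and 65.0 CPM.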

How the data were processed

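The chromatin part of a multiome on nuclei of LiNKT cells of both mouse groups was analysed, with each barcode ending taken as 1 library. Per the study's methods, reads had been aligned with BWA-MEM to GRCm38 in Cell Ranger ARC and duplicates removed. The fragment table deposited by the authors has 1 line per fragment and the count of its reads, with both samples pooled. Both ends of a fragment, which the pipeline corrects for the transposase offset, were counted for barcodes with at least 1000 fragments, per 1000000 ends (EPM), in promoters and bodies of GENCODE M21 genes and in 500 bp windows. Doublets were not looked for. Totals and depth per nucleus are given in the report, with Poisson and exact binomial 95% intervals for counting error. The 15 promoters and 10 bodies with the highest and lowest ratios were named by rule. So were the genes that hold or lie nearest to the 10 highest and lowest windows. In some lists, up to 4 members with the largest promoter ratios were named by rule. Other members with large ratios, such as Ccl4 and Xcl1, were passed over. Others in the lists, the body-only genes of the TR1-like list and the genes of the RNA paragraph were picked after their values were seen, as were genes given for contrast. Members, lists and alternatives were chosen with earlier results of these data known.

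The SmartSeq2 count values are reads per gene and cell as deposited by the authors (STAR, GRCm38), and cells in the study's cell list were used, with and without those holding 10 or more reads of macrophage or hepatocyte markers. Region means are the methylated fraction deposited by the authors (BSMAP and metilene, mm10). Single cytosines were not used. Sequences were read from GRCm38.p6. Counting and fold calls were tested on simulated data. Python 3.11.15, NumPy 2.4.6 and SciPy 1.17.1 were used. Results were recomputed with other minimums, priors, scalings, barcode sets and windows.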

Additional observations from a re-analysis of the deposited data

How the results depend on the processing

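Counts of loci depended on the minimum and on the value added before the ratio, and little on the nuclei used. With 3 instead of 1 EPM added, 63 promoters (106 as reported) were at least 2-fold higher in ending 2, 18 (42) in ending 1, and 29 gene bodies (48) in ending 1. With a mean of at least 20 EPM, 13 and 6 promoters and 69 and 20 gene bodies were called for endings 2 and 1, and with no minimum 280 promoters were higher in ending 2. A mean of 5 EPM for 500 bp windows gave 126 (758) for ending 2 and 30 (154) for ending 1. The median RNA log2 ratio of genes with promoters higher in ending 2 became 0.48 (0.03) with all cells of the tables. Leaving out the 14 treated cells with macrophage or hepatocyte marker RNA, added after the data were seen, took the genes of ending 1 with RNA at least 2-fold higher in treated cells from 3 to 0. A larger added value shrinks the ratios of weak loci and a higher minimum leaves them out, by construction. The cause of the change with all cells was not tested. The other 60 of 72 recomputed values stayed within 1.5 times of the reported count or within 0.1 (log2), including those for at least 5000 fragments per barcode, for nuclei weighted equally and without barcode sequences found with both endings. Of 50 ratios of named genes under 12 alternatives, none changed direction, 2 of 600 fell below 2-fold (Zfp2 and Emb with 3 EPM added) and 125 moved beyond the range that the Poisson intervals of both endings allow. Counting only fragments shorter than nucleosomal DNA moved a ratio most, by 0.91 (log2) for Il21. No paired analysis was possible because each ending was taken as 1 library. A difference between endings cannot be told apart from one between libraries.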

Other observations

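Among genes with a called promoter and a 2-fold RNA difference, some had the less frequent RNA direction for their ending. This sorting by frequency assigns no ending to a treatment. Coq8a (9.67 EPM in ending 1 and 26.9 in ending 2) and Wdr95 (9.90 and 24.2) had promoters more open in ending 2, while their RNA was at 35.8 and 11.3 CPM in untreated cells and was not counted in treated cells. Promoters of Cd93, Chdh and Pilrb1 were more open in ending 1, and their RNA was higher in treated cells, with 7.12 CPM in untreated and 15.6 in treated cells for Cd93, 1.01 and 4.96 for Chdh, and 0.00580 and 3.05 for Pilrb1. Without the 14 treated cells that held macrophage or hepatocyte marker RNA, the treated values were 7.10, 0 and 0 CPM, and none of the 3 was higher in treated cells by 2-fold. These genes were chosen after their values were seen.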
